A study of Mus musculus with 4 samples.

Results

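The genes described here run programmed cell death: the Bcl2 family, the caspases and their partners, the inhibitors of apoptosis, the death receptor complex, and the kinases, inflammasome and pore proteins of necroptosis and pyroptosis. They were taken from the expression table by gene symbol, from a list of 43 symbols, and 41 of them had a row among 25050 genes; Casp1 and Hrk were not analysed here. RNA was sequenced from HT-22, a mouse cell line derived from hippocampal neurons and held here at passages 21 to 24, in 2 libraries with Nsmce1 overexpression (titled Nsmce1-pb) and 2 of wild type. Nsmce1 encodes a subunit of the Smc5/6 complex, which acts in DNA repair. The design text also calls the overexpressing cells inducible and the controls uninduced, and names no inducer, dose or duration, so whether the controls carry the construct is not known. Nothing is said of clones or of separate cultures. The p-values therefore measure the spread between these libraries, which may be technical, and whether Nsmce1 or another difference of the cell populations lies behind a change cannot be told apart.

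Cells can die by programmes they carry out themselves. In the mitochondrial route of apoptosis, BH3-only proteins and the anti-apoptotic Bcl2 proteins they bind decide whether Bak and Bax open the outer mitochondrial membrane, and released cytochrome c assembles with Apaf1 to start caspase 9. In the receptor route, Tradd, Fadd and caspase 8 assemble below death receptors, and where caspase 8 is inactive the kinases Ripk1 and Ripk3 can instead drive Mlkl to rupture the plasma membrane, which is necroptosis. In the pyroptosis driven by gasdermin D, inflammatory caspases cut it and it forms pores in the plasma membrane, which then ruptures. Neurons are known to keep several of these genes low once mature, and microglia are the main cells of the hippocampus that express the inflammasome.

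The 4 libraries held 25787452 to 44602989 whole reads, with the overexpressing libraries the deeper ones. Nsmce1 itself had 17851 and 16525 normalised reads in the overexpressing libraries, against 1108 and 1206 in the wild type libraries, so the groups matched their labels. A normalised read is a read count divided by a library factor set by the authors. Of 12 markers of neurons, 7 had a row and 4 of these averaged under 10 normalised reads, among them Syt1, Stmn2 and Slc17a7. The neuronal tubulin Tubb3 had 446 and 611 normalised reads in the overexpressing libraries, against 622 and 574 in the wild type libraries. Gap43 was low and differed, with 7 and 0 in the overexpressing libraries, against 23.9 and 44.2 in the wild type libraries. Syp had 17 and 12.4 in the overexpressing libraries, against 6.29 and 12.6 in the wild type libraries. The groups overlapped for Tubb3 and Syp. All 8 fibroblast markers had a row. Their summed level was 333538 and 290851 in the overexpressing libraries, against 365781 and 318689 in the wild type libraries. Most of this sum came from Col1a1, Col1a2 and Col3a1, and Lum averaged under 10 normalised reads. Astrocyte markers summed to 6495 and 6786 in the overexpressing libraries, against 5173 and 5102 in the wild type libraries, mostly from Slc1a3 and Gja1. They did not move together. Slc1a3 had 4537 and 4245 normalised reads in the overexpressing libraries, against 3302 and 2956 in the wild type libraries, while the groups of Gja1 overlapped. Aldh1l1 went the other way, with 14 and 12.4 in the overexpressing libraries, against 57.8 and 65.3 in the wild type libraries. Gfap and Slc1a2 averaged under 10 normalised reads. Oligodendrocyte markers summed to 16165 and 15579 in the overexpressing libraries, against 16769 and 14666 in the wild type libraries, mostly from Pdgfra and Cspg4. The label of a neuron therefore rests on few expressed markers.

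Of the 41 genes, 38 averaged at least 10 normalised reads and were tested, and 3 (Bik, Nlrp3 and Pycard) were below that. Gsdmd, which encodes the pore protein gasdermin D, rose with Nsmce1 overexpression and was the 1 gene of the 38 past a limma adjusted p of 0.05. It met the minimum mean only through the overexpressing libraries, where it is high, and with no minimum its limma adjusted p was 0.103. Of the 15540 genes tested, 0.193% were called (0.103% higher and 0.0901% lower). Of the 38 tested genes, 19 lay above 0 and 19 below, with a median log2 fold change of 0.0055, beside a median of 0.0054 over all genes tested. An absolute log2 fold change of at least 0.5 was reached by 4 of the 38 genes (Gsdmd, Bcl2l2, Endog and Apaf1), against 11.2% of all genes tested. At an unadjusted limma p under 0.05 there were 8 of them, 6 higher and 2 lower, where 7.92% of all genes tested reached it (4.32% higher and 3.6% lower). The values of the groups did not overlap for 16 of the 38 genes, which is 42.1%, against 39.1% of all genes tested; 11 were higher and 5 lower in overexpressing cells, beside 20.8% and 18.3% of all genes.

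**Figure D1:**
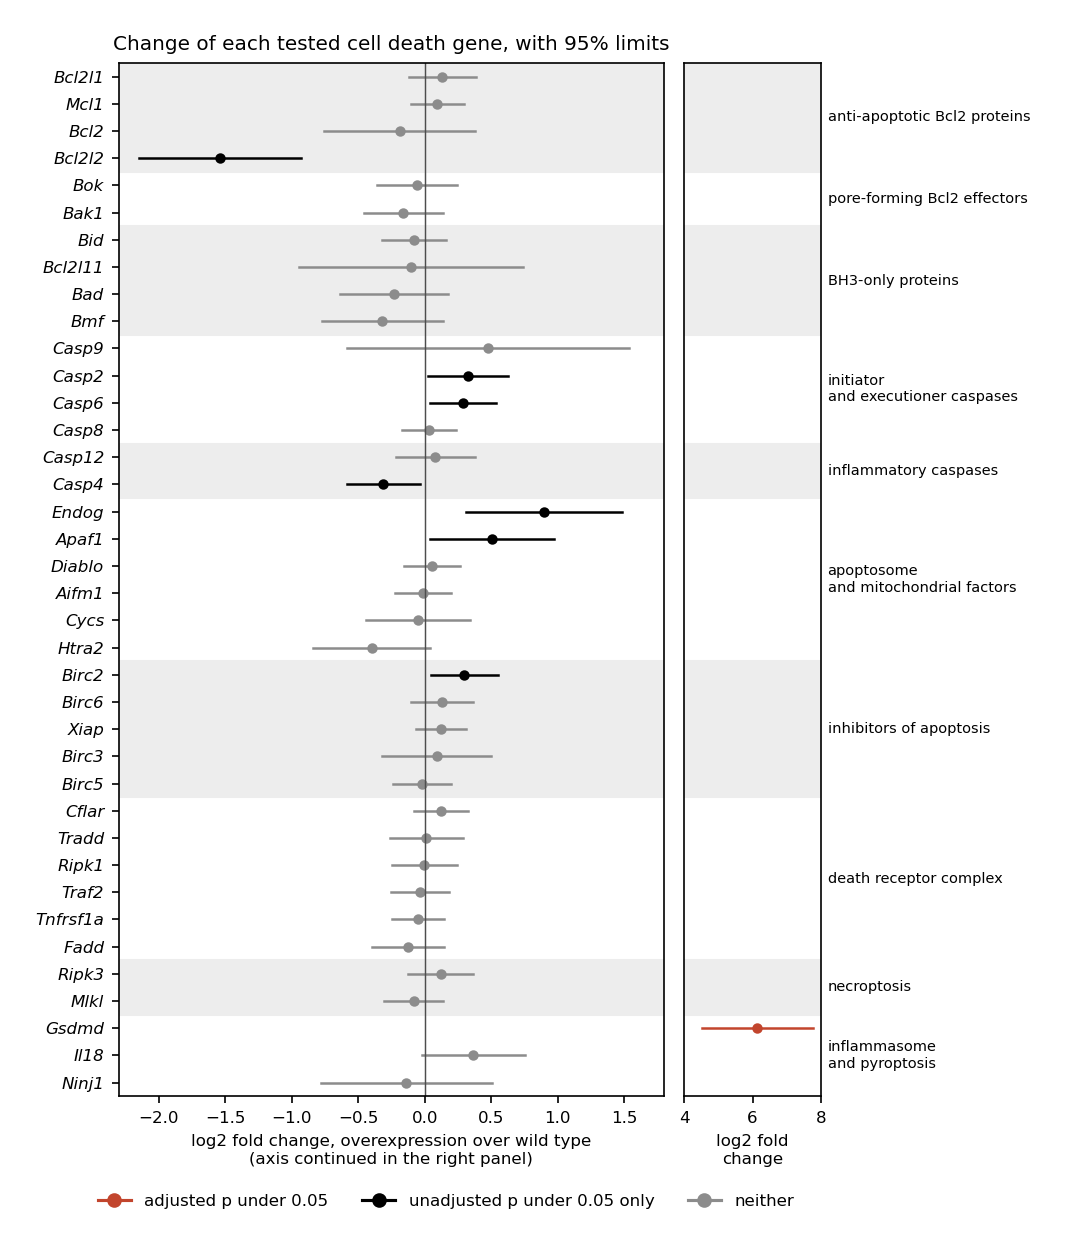
Log2 fold change of overexpression over wild type for the 38 tested cell death genes, grouped by role, with points for the estimate and lines for limma's 95% limits; the horizontal axis is continued in the right panel. Gsdmd stands at 6.13, Bcl2l2 at -1.54, and the limits of 30 genes include 0.

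The anti-apoptotic Bcl2 proteins hold Bax, Bak and the BH3-only proteins in check at the mitochondrial membrane. Bcl2l2, which encodes Bcl-w, had 429 and 751 normalised reads in the overexpressing libraries, against 1620 and 1683 in the wild type libraries. Both overexpressing libraries lay far below both wild type libraries, and they also differed from each other by a factor of 1.75. The log2 fold change was -1.54 (SE 0.249, 95% interval -2.15 to -0.93), which is 2.90-fold lower, and it missed the threshold over all genes (limma adjusted p = 0.136). It passed with overexpression replicate 1 left out (-1.14, limma adjusted p = 0.0343) or overexpression replicate 2 left out (-1.94, limma adjusted p = 0.00535), where 1 library stands for the group. Without wild type replicate 1 its limma adjusted p was 0.511 and without wild type replicate 2 it was 0.576, at log2 fold changes of -1.57 and -1.51. Bcl2l2 shares 594 exon bases, 13.3% of its exon length, with Gm20521, an annotated gene on the same strand that runs on into Pabpn1. Gm20521 had 297 and 106 normalised reads in the overexpressing libraries, against 204 and 253 in the wild type libraries, so its high and low overexpressing libraries were the reverse of those of Bcl2l2. With the reads of Bcl2l2 and Gm20521 summed, a choice made after their values were seen, the totals were 726 and 857 in the overexpressing libraries, against 1823 and 1936 in the wild type libraries. The summed log2 fold change was -1.25 (SE 0.114, limma adjusted p = 0.0261), 2.38-fold lower. The neighbouring Pabpn1 had 2695 and 2664 normalised reads in the overexpressing libraries, against 2548 and 2600 in the wild type libraries.

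The promoter windows of Bcl2l2 and Endog are shown because, after Gsdmd, these genes had the largest differences in each direction. Each runs from 250 bases before to 50 bases after the RefSeq start (GRCm38.p6), read 5′ to 3′, with capitals on GC boxes (GGGCGG) and CCAAT boxes on either strand. Of the 43 symbols, 39 had such a window in the RefSeq table. The Bcl2l2 window, chr14:54883175-54883474 on the + strand, holds 1 GC box and no CCAAT box or TATA box (TATAAA), and 65.3% of its bases are G or C.
Bcl2l2: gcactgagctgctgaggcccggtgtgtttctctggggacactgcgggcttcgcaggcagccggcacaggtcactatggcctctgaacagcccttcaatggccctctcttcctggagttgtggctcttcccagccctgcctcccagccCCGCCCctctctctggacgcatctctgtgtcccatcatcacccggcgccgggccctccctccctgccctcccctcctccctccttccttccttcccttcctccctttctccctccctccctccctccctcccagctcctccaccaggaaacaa
The Endog window, chr2:30171274-30171573 on the + strand, holds 1 GC box and 1 CCAAT box, no TATA box, and 57.7% G or C.
Endog: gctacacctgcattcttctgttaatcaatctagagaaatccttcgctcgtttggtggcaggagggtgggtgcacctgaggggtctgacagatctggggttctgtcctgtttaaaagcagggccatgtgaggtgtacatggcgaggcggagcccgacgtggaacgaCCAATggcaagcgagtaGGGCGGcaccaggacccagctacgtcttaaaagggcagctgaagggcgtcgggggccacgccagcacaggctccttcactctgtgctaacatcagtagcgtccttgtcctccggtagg
Over all 32851 windows of the same length, 35.7% held a GC box, 37.4% a CCAAT box and 13.6% a TATA box, and the median share of G or C was 52.7%. A match of letters is a description and not evidence of binding.

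With limma 0 of the other 3 anti-apoptotic genes were called, and 0 had an unadjusted p under 0.05. Mcl1, a short-lived protein that guards against Bak, had 5879 and 5585 normalised reads in the overexpressing libraries, against 5618 and 5125 in the wild type libraries. The groups overlapped, and the log2 fold change of 0.09 had limits of -0.11 and 0.30. Bcl2l1, which encodes Bcl-xL, had 1126 and 1008 normalised reads in the overexpressing libraries, against 959 and 983 in the wild type libraries, and the groups did not overlap (log2 fold change 0.13, limma adjusted p = 0.779). Bcl2, the founding member of the family, had 322 and 226 normalised reads in the overexpressing libraries, against 358 and 264 in the wild type libraries. In both groups the first replicate of Bcl2 was higher than the other one, and the groups overlapped (log2 fold change -0.19, interval -0.76 to 0.38). Per length, Mcl1 was the most abundant of the 4 genes, with 1677 normalised reads per kb of exon in overexpressing cells and 1572 in wild type cells, and Bcl2 the least abundant, with 29.9 and 34.0.

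Of the proteins that open the mitochondrial membrane, Bak1 had the highest level per length of all 41 genes, 1679 normalised reads per kb in overexpressing cells and 1871 in wild type cells. Its reads were 3658 and 4424 in the overexpressing libraries, against 4176 and 4833 in the wild type libraries (log2 fold change -0.16, interval -0.46 to 0.14). The first replicate was the lower one in both groups, and the groups overlapped. Bok, a related protein that can act without the others, had a log2 fold change of -0.06 (limits -0.36 and 0.24). The BH3-only genes sense damage and stress and activate the pore formers or block their guards. The 4 listed members that were tested lay below 0, and their values overlapped between the groups in all 4. Bbc3, a further BH3-only gene that encodes Puma and is named after its values were seen, lay above 0, with 423 and 423 normalised reads in the overexpressing libraries, against 307 and 443 in the wild type libraries (log2 fold change 0.20). Bmf, which responds to loss of attachment, had 955 and 712 normalised reads in the overexpressing libraries, against 1168 and 905 in the wild type libraries (log2 fold change -0.32, limma adjusted p = 0.723). Bad, which is held inactive by growth factor signalling, had a log2 fold change of -0.23 and Bid, which links death receptors to mitochondria, at -0.08. Bcl2l11, which encodes Bim, had 1052 and 899 normalised reads in the overexpressing libraries, against 1550 and 703 in the wild type libraries. Both overexpressing values of Bcl2l11 lay between the wild type ones, which differed by a factor of 2.20. Bik was at 0 reads in both overexpressing libraries, against 0 and 3 reads in the wild type libraries. In an overexpressing library, 0 reads allow up to 3 normalised reads in replicate 1 and 2.19 in replicate 2, counting error only. Bak1, Bid and Bad overlap the exons of Ggnbp1, Bcl2l13 and Gpr137 on the opposite strand over 18.2%, 17.7% and 20.5% of their exon length, and without strand the reads of each pair cannot be told apart.

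**Figure D2:**
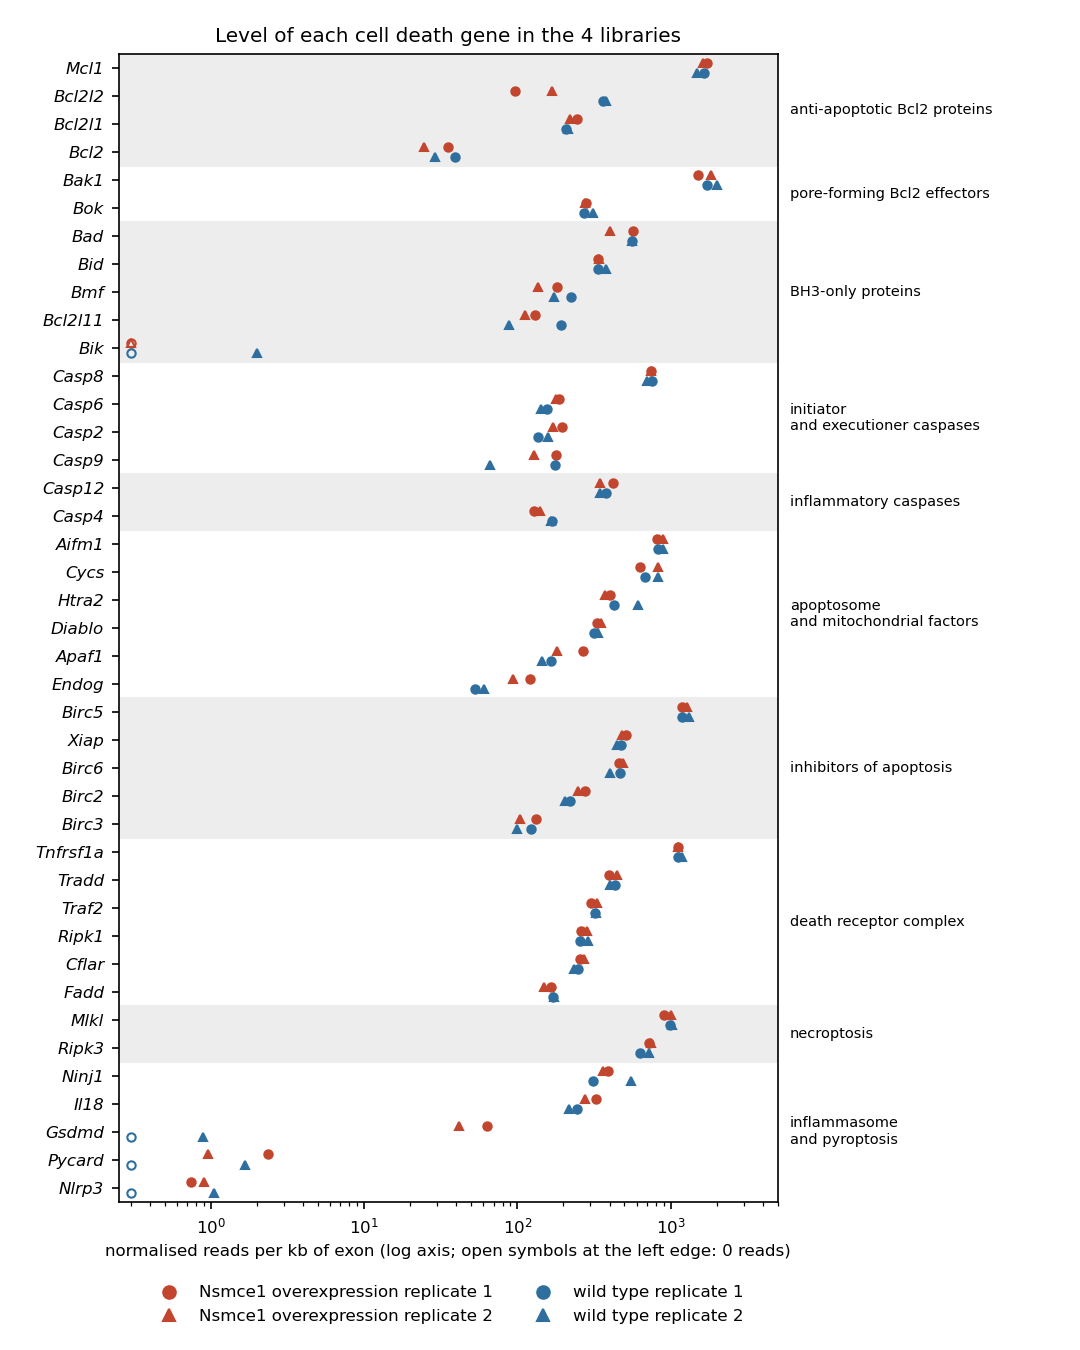
Level of the 41 cell death genes in each library, in normalised reads per kb of exon on a log axis, with circles for replicate 1 and triangles for replicate 2 and open symbols at the left edge for 0 reads. Bak1, Mcl1, Birc5 and Tnfrsf1a have the highest means, 1133 to 1775, while Bik, Nlrp3 and Pycard are lowest, at means of 0.496 to 1.25, and the overexpressing values of Gsdmd lie far right of its wild type values.

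Of the 6 apoptosome and mitochondrial factors, 3 lay above 0 and 3 below; 0 were called with limma, and 2 had an unadjusted p under 0.05. Endog, a mitochondrial nuclease that can cut DNA in the nucleus, had 129 and 99.3 normalised reads in the overexpressing libraries, against 56.6 and 64.2 in the wild type libraries. The overexpressing libraries were both higher, 1.86-fold on the log2 scale of the test (log2 fold change 0.90, interval 0.31 to 1.49), and missed the threshold (limma adjusted p = 0.413). Endog overlaps Spout1 on the opposite strand over 35.7% of its exon length, and without strand the reads of these genes cannot be told apart. Spout1 had 698 and 485 normalised reads in the overexpressing libraries, against 655 and 501 in the wild type libraries, higher in replicate 1 in both groups. Apaf1, the scaffold of the apoptosome, had 2433 and 1637 normalised reads in the overexpressing libraries, against 1508 and 1314 in the wild type libraries. The groups did not overlap, but the overexpressing libraries lay further from each other than the lower of them did from wild type (log2 fold change 0.50, SE 0.192, limma adjusted p = 0.594). Apaf1 lies on chromosome 10, where the median over 752 tested genes was 0.14 on the log2 scale. Relative to that median the log2 fold change of Apaf1 was 0.36.

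Cycs, which encodes cytochrome c, had 2158 and 2833 normalised reads in the overexpressing libraries, against 2309 and 2833 in the wild type libraries. The first replicate was the lower one in both groups, and the log2 fold change was -0.05 (interval -0.44 to 0.34). Of its sequence words of 50 bases, 26.1% also occur in other annotated genes, so its counts can be split with them. Htra2, a protease that is released from mitochondria and cuts inhibitors of apoptosis, had 1185 and 1102 normalised reads in the overexpressing libraries, against 1250 and 1818 in the wild type libraries. The groups did not overlap, but wild type replicate 1 lay close to the overexpressing libraries (log2 fold change -0.40, limma adjusted p = 0.659). Diablo, which relieves caspases from Xiap, had a log2 fold change of 0.05. That of Aifm1, the apoptosis-inducing factor of the mitochondrial intermembrane space, was -0.01. Exons of Htra2 and Diablo also overlap genes on the opposite strand, and those of Diablo a further gene on its own strand, and 33.8% and 37.3% of their 50-base words are shared with other genes.

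The 4 listed initiator and executioner caspases lay above 0, by 0.03 to 0.48 on the log2 scale; 0 were called with limma, and 2 had an unadjusted p under 0.05. Caspases are proteases made as inactive precursors, so RNA levels do not measure their activity. Casp6, an executioner caspase, had 1040 and 1001 normalised reads in the overexpressing libraries, against 869 and 801 in the wild type libraries. Both overexpressing libraries were higher, 1.22-fold (log2 fold change 0.29, SE 0.101, limma adjusted p = 0.549). Casp2, an initiator activated in the PIDDosome, had 1385 and 1207 normalised reads in the overexpressing libraries, against 956 and 1112 in the wild type libraries. These too were higher in both overexpressing libraries, 1.25-fold (log2 fold change 0.33, SE 0.123, limma adjusted p = 0.585). Casp9, the initiator bound by Apaf1, had 923 and 668 normalised reads in the overexpressing libraries, against 919 and 346 in the wild type libraries. Wild type replicate 2 stood alone at the low end, and with the interval of the log2 fold change at -0.59 to 1.54 no direction was detectable. Casp8, the initiator below death receptors, had 2144 and 2172 normalised reads in the overexpressing libraries, against 2179 and 2041 in the wild type libraries (log2 fold change 0.03, interval -0.17 to 0.24).

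The inflammatory caspases Casp4 and Casp12 are neighbours on chromosome 9 and stood on opposite sides of 0. Casp4, which encodes the mouse caspase 11 that senses lipopolysaccharide in the cytosol and cuts gasdermin D, had 479 and 521 normalised reads in the overexpressing libraries, against 626 and 614 in the wild type libraries. Both overexpressing libraries were lower, 1.24-fold, with close replicates in both groups (log2 fold change -0.31, SE 0.114, limma adjusted p = 0.563). Casp12, which has been linked to stress of the endoplasmic reticulum in mouse cells, had 1613 and 1333 normalised reads in the overexpressing libraries, against 1450 and 1325 in the wild type libraries, and the groups overlapped.

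**Figure D3:**
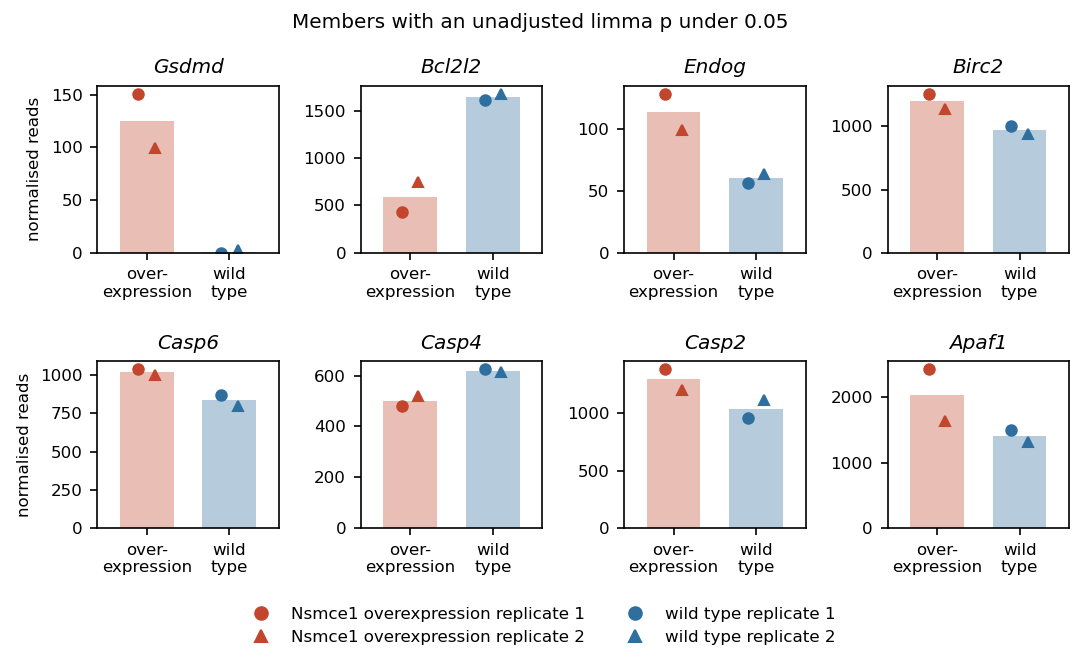
Normalised reads in each library for the 8 cell death genes with an unadjusted limma p under 0.05, with bars for the mean of 2 libraries, circles for replicate 1 and triangles for replicate 2. Of these genes, Gsdmd, Endog, Birc2, Casp6, Casp2 and Apaf1 were higher and Bcl2l2 and Casp4 lower in both overexpressing libraries, and only Gsdmd passed the adjusted threshold.

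The inhibitors of apoptosis bind caspases or attach ubiquitin to the signalling complexes below death receptors. Of the 5 tested, 4 lay above 0; 0 were called with limma, and 1 had an unadjusted p under 0.05. Birc2, which encodes cIAP1, had 1259 and 1139 normalised reads in the overexpressing libraries, against 1005 and 943 in the wild type libraries. Both overexpressing libraries were higher, 1.23-fold (log2 fold change 0.30, SE 0.103, limma adjusted p = 0.549). Its neighbour Birc3, which encodes cIAP2, had 660 and 525 normalised reads in the overexpressing libraries, against 615 and 496 in the wild type libraries, again with the first replicate higher in each group and no separation. Xiap, which blocks caspases directly, had 4862 and 4595 normalised reads in the overexpressing libraries, against 4465 and 4221 in the wild type libraries, a separation of 1.09-fold (limma adjusted p = 0.740). Birc6, a very large ubiquitin ligase, had a log2 fold change of 0.13 (interval -0.10 to 0.36). Birc5, which encodes survivin, a subunit of the chromosomal passenger complex of dividing cells, had 4018 and 4367 normalised reads in the overexpressing libraries, against 4033 and 4478 in the wild type libraries.

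Of the death receptor genes 0 were called with limma. All 6 lay within 0.13 of 0 on the log2 scale, and 0 reached an unadjusted limma p under 0.05. Tnfrsf1a, the receptor for tumour necrosis factor, had 2886 and 2883 normalised reads in the overexpressing libraries, against 2899 and 3076 in the wild type libraries. The overexpressing values lay just below the lower wild type value, and the log2 fold change of -0.05 had limits of -0.24 and 0.14. The adaptors Tradd, Traf2 and Fadd had log2 fold changes of 0.01, -0.03 and -0.12, and Cflar, a caspase 8 homologue without protease activity that restrains it, at 0.12 (3229 and 3462 normalised reads in the overexpressing libraries, against 3168 and 2977 in the wild type libraries). Ripk1, the kinase at the branch between survival, apoptosis and necroptosis, had 2173 and 2370 normalised reads in the overexpressing libraries, against 2138 and 2416 in the wild type libraries (log2 fold change -0.0020, interval -0.24 to 0.24).

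HT-22 cells of both groups expressed the necroptosis pair. Ripk3, the kinase that phosphorylates Mlkl, had 1649 and 1702 normalised reads in the overexpressing libraries, against 1442 and 1646 in the wild type libraries. The groups did not overlap, with overexpression replicate 1 next to wild type replicate 2 (log2 fold change 0.12, interval -0.12 to 0.36). Mlkl, the protein that breaks the membrane, had 2080 and 2314 normalised reads in the overexpressing libraries, against 2275 and 2370 in the wild type libraries (log2 fold change -0.08, interval -0.30 to 0.14). Per length, Mlkl stood at 954 normalised reads per kb in overexpressing cells and 1008 in wild type cells, the fifth highest level of the 41 genes over all libraries, and Ripk3 at 731 and 674.

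Gsdmd was the 1 cell death gene called, and it rose with overexpression. Gasdermin D forms the membrane pores of pyroptosis. Gsdmd had 151 and 136 whole reads in the overexpressing libraries, against 0 and 2 in the wild type libraries. In normalised reads these were 151 and 99.3 in overexpressing cells, against 0 and 2.11 in wild type cells, so both overexpressing libraries were far above both wild type ones. The ratio of the groups' reads, each divided by its depth, was 106, with an exact 95% interval of 29.0 to 877 that covers counting error only. The log2 fold change on the log2(value + 1) scale was 6.13 (SE 0.668, interval 4.50 to 7.76, limma adjusted p = 0.0472). That p lies close to the threshold, and the call was lost under 11 of 16 alternative settings, with log2 fold changes of 4.42 to 8.03 and limma adjusted p between 0.0133 and 0.271. With a pseudocount of 0.1 the log2 fold change was 8.03 (limma adjusted p = 0.184), and leaving out any of the 4 libraries gave adjusted p from 0.0737 to 0.137. Per length, Gsdmd reached 52.6 normalised reads per kb in overexpressing cells, which is still below every other tested member except Bcl2, and 0.443 in wild type cells. In these bulk libraries, a few cells with much Gsdmd RNA and many cells with little cannot be told apart.

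None of the 50-base words of Gsdmd occurs in another annotated gene, and it overlaps no other gene in the annotation. Its nearest annotated neighbours are the processed pseudogene Gm9568, 6.10 kb to the left, and Mroh6, 16.7 kb to the right on the opposite strand. Mroh6 had 15 and 25 whole reads in the overexpressing libraries, against 0 and 2 in the wild type libraries, a depth-corrected ratio of 14.7 (exact 95% interval 3.82 to 126, counting error only). It averaged under 10 normalised reads and was not tested. Gm9568 had 0 reads in both overexpressing libraries, against 3 and 0 in the wild type libraries. Naprt, the next gene after Mroh6 and named after its values were seen, had 18.0 and 20.4 normalised reads in the overexpressing libraries, against 16.3 and 20.01 in the wild type libraries.

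The other genes of this group were Nlrp3 and Pycard, too low to test, and Il18 and Ninj1; of these last 2, 0 were called with limma and 0 had an unadjusted p under 0.05. Nlrp3, the inflammasome sensor, had 3 and 5 reads in the overexpressing libraries, against 0 and 4 in the wild type libraries, and Pycard, the adaptor that joins sensors to caspase 1, had 9 and 5 reads in the overexpressing libraries, against 0 and 6 in the wild type libraries. With so few reads, no difference was detectable at this depth. Il18, the cytokine precursor matured by caspase 1, had 335 and 283 normalised reads in the overexpressing libraries, against 253 and 225 in the wild type libraries. The groups did not overlap (1.29-fold higher, log2 fold change 0.37, interval -0.021 to 0.75, limma adjusted p = 0.651). Ninj1, which ruptures the plasma membrane at the end of lytic cell death, had 615 and 572 normalised reads in the overexpressing libraries, against 488 and 871 in the wild type libraries, so the overexpressing values lay between the wild type ones. Since microglia and other leukocytes are rich in these genes, their markers were read beside them. Of 14 such markers 9 had a row, and Ptprc, Cx3cr1, Itgam, Csf1r, Spi1 and Laptm5 averaged under 10 normalised reads; the summed level of the 9 was 1787 and 1645 in the overexpressing libraries, against 2338 and 1974 in the wild type libraries, most of it from Tmem119. Each of these 6 had 0 to 4.38 normalised reads in the overexpressing libraries, against 0 to 7.54 in the wild type libraries. The other 3 did not move together. Tmem119 had 1587 and 1494 normalised reads in the overexpressing libraries, against 2184 and 1830 in the wild type libraries. Aif1 had 65 and 40.1 in the overexpressing libraries, against 46.5 and 67.4 in the wild type libraries, and the groups overlapped. Cd68, a lysosomal protein of macrophages, had 132 and 101 in the overexpressing libraries, against 88.02 and 70.6 in the wild type libraries. The part of these markers in the result was not tested.

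Further genes of the same pathways were read from a list of 55 symbols set by role. Of these, 42 had a row and 35 were tested, with 20 above and 15 below 0 and a median log2 fold change of 0.02. With limma 0 of them were called over all genes, and 7 reached an unadjusted p under 0.05, 3 higher and 4 lower, beside 7.92% of all genes tested. These 3 were Map3k7, Traf3 and Tab2, and the 4 lower ones were all Naip genes. The 4 with the smallest p were Map3k7, Traf3, Naip5 and Tab2. Map3k7, which encodes TAK1, the kinase that passes death receptor signals on to NF-kappaB, had 4022 and 4311 normalised reads in the overexpressing libraries, against 2984 and 3109 in the wild type libraries (log2 fold change 0.45, SE 0.0804, limma adjusted p = 0.168). Its binding partner Tab2 had 5216 and 5249 in the overexpressing libraries, against 4391 and 4292 in the wild type libraries (log2 fold change 0.27, limma adjusted p = 0.409), and lies on chromosome 10, whose genes were shifted upwards as given for Apaf1. Traf3, a ubiquitin ligase that works with cIAP1 and cIAP2, had 1385 and 1784 in the overexpressing libraries, against 1037 and 929 in the wild type libraries (log2 fold change 0.68, SE 0.144, limma adjusted p = 0.265). In each of these 3 genes both overexpressing libraries lay above both wild type libraries. The same held for 9 of the 35 tested genes of this list and for 20.8% of all genes tested. These 3 were singled out by their p, so their separation adds little.

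Naip5, an inflammasome sensor of bacterial flagellin, had 610 and 522 normalised reads in the overexpressing libraries, against 788 and 793 in the wild type libraries (log2 fold change -0.49, SE 0.121, limma adjusted p = 0.362). The other Naip genes with a row, Naip1, Naip2 and Naip6, are named after their values were seen, and had log2 fold changes of -0.95, -0.26 and -0.26. In all 4 the overexpressing libraries were below the wild type libraries. The same held for 11 of the 35 tested genes of the list and for 18.3% of all genes tested. These 4 were singled out by their values, so their separation adds little. The Naip genes are related copies on chromosome 13, and 19.1% to 36.9% of their 50-base words occur in another gene, so reads from those stretches can be split between them and their counts are uncertain. Bax and Dfna5 are also named after their values were seen. Bax, the partner of Bak, had a log2 fold change of 0.18, and its groups overlapped. Dfna5, the older symbol of gasdermin E, had 838 and 771 normalised reads in the overexpressing libraries, against 944 and 899 in the wild type libraries, on the other side of 0 from Gsdmd (log2 fold change -0.20, limma adjusted p = 0.704).

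A gap of over 1.5-fold between replicates was found for Bcl2l2 and Gsdmd in overexpressing cells. In wild type cells it was found for Bcl2l11, Casp9, Gsdmd and Ninj1. These are 2 and 4 of 38 genes, against 11.8% and 11.98% of all genes tested. For Gsdmd in wild type cells the gap is only 0 against 2 reads, since any 0 beside a read is counted as a gap. With each library left out in turn, 23 of the 38 genes kept the sign of their log2 fold change in all 4 fits. For the 16 genes whose groups did not overlap, leaving out a library could not turn the sign. The 8 genes with an unadjusted limma p under 0.05 are among these, so their kept sign adds nothing. The share of all genes tested that kept its sign was not computed. The widest range after that of Gsdmd was that of Casp9, from -0.23 without wild type replicate 2 to 1.18 without wild type replicate 1. The log2 fold change of Bcl2l11 ran from -0.67 to 0.47 and Ninj1 from -0.55 to 0.28, and in both the extremes came from leaving out a wild type library.

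**Figure D4:**
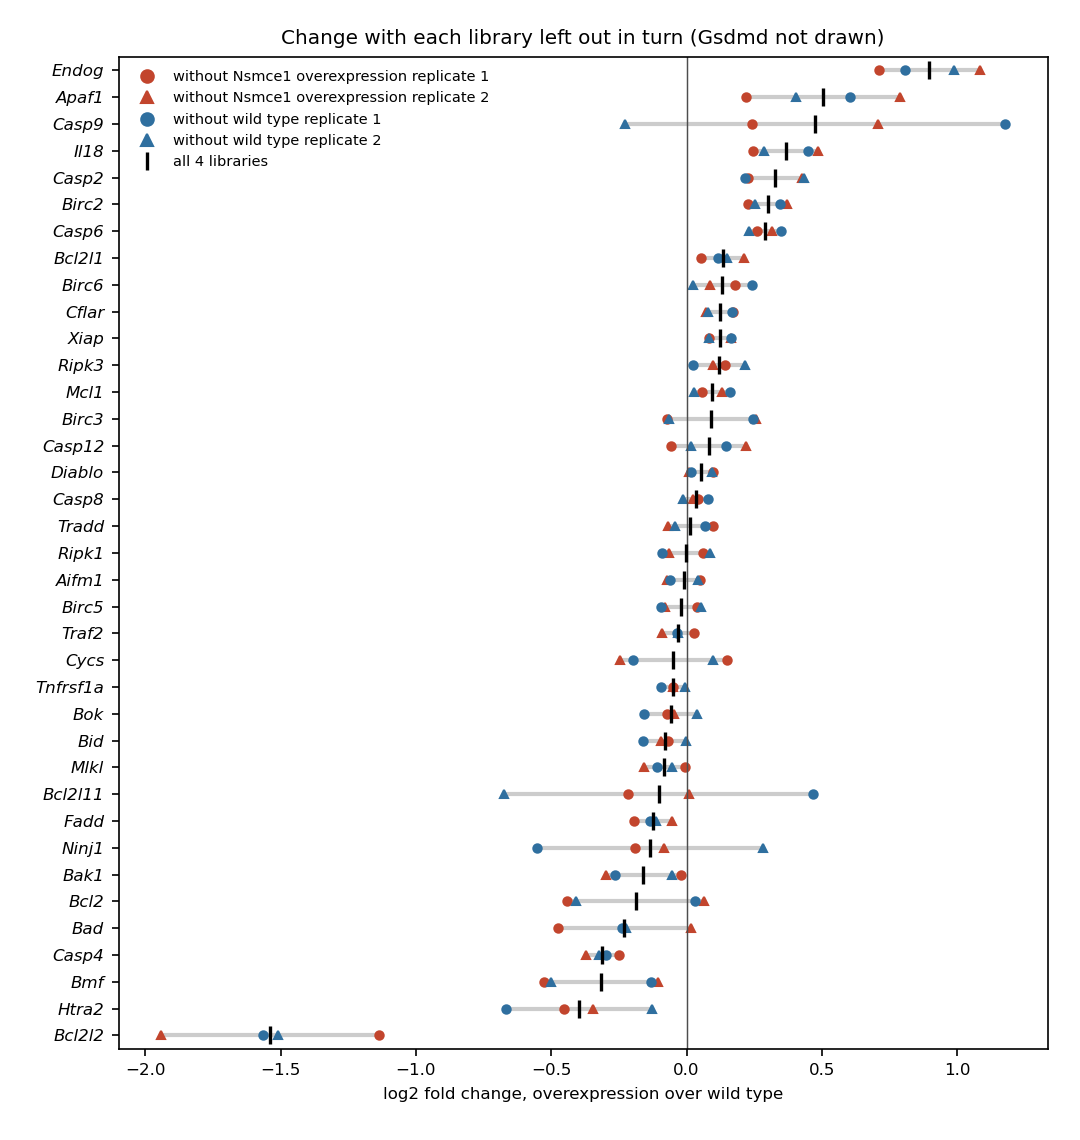
Log2 fold change of overexpression over wild type for 37 tested cell death genes with each of the 4 libraries left out in turn (coloured symbols) and with all libraries (black bars); Gsdmd, at 5.31 to 6.95, is off the scale and not drawn. Bcl2l2 stays between -1.94 and -1.14, while the ranges of Casp9, Bcl2l11 and Ninj1 span 0.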

How the data were processed

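RNA of 2 overexpressing and 2 wild type libraries was sequenced. HISAT, Cufflinks and the build mm9 appear in the submitters' processing notes. The counting, any use of strand and the tool versions: not given in the sources used here. For the series, the authors deposited 1 table of log2 values, which from the values are log2(normalised read count + 1): with the log2 undone, 100% of values were whole multiples of 1 step per library, within 0.001 read.

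The design allowed for counts or log values, and the log2 branch was used: limma 3.58.1 (R 4.3.3) with a mean-variance trend, group as the only term, over all 15540 genes averaging at least 10 normalised reads, with Benjamini-Hochberg adjustment and a threshold of 0.05. P-values are two-sided, with 6.10 total degrees of freedom. For 2 libraries against 2 the smallest exact permutation p is 0.333. Because 1 is added before the log, fold changes of weakly expressed genes come out too small. Exon lengths, chromosomes, overlaps and 50-base words came from GENCODE M21 (GRCm38) by Ensembl identifier. The steps were tested on simulated data. Only genes with a higher mean than that of Gsdmd were changed there, so a change like that of Gsdmd was not covered.

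Every member was named. Of other genes, Nsmce1, the 4 listed pathway genes with the smallest p and the neighbours of a called member were named. Cell type markers, genes that share exons with a member, and Pabpn1 beside Bcl2l2 were named too. Further genes were named after their values were seen, as stated where they appear. The members and lists were chosen with earlier results of these data known. Alternatives changed the pseudocount (0.1, 5), the minimum (none, 50), the scaling, the variance model, the replicate block, the chromosome medians and the libraries used.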

Additional observations from a re-analysis of the deposited data

How the results depend on the processing

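Of the 38 tested members, 456 pairs of a member and a setting that kept all libraries were refitted, and 446 kept their direction and their side of the threshold. The direction turned in 2, both near 0: Birc5 stood at 0.018 with chromosome medians removed and Ripk1 at 0.0020 with a common median. The 1 member called (Gsdmd) became 0 with a pseudocount of 0.1, with no minimum, with a minimum of 50, with a common median, with quantile normalization, with voom (limma adjusted p = 0.0893) and with no variance trend (limma adjusted p = 0.271). The replicate block gave 2 called members, Gsdmd and Bcl2l2 (limma adjusted p = 0.0379 and 0.0397), and 60 called genes against 30; the labels tie the numbers to no shared batch, and with 2 pairs the deviations of same-numbered libraries correlated at 0.0068, so the numbers are not read as pairs. All genes called were 16 with no minimum, 18 with quantile normalization, 9 with no variance trend and 72 with robust variances. Leaving out 1 library gave 2 to 75 called genes, 0 to 1 called members and 0 to 1 other cell death genes. The member was Bcl2l2 without overexpression replicate 1 or 2 (limma adjusted p = 0.0343 and 0.00535), and the other genes were Nek7 without overexpression replicate 1 and Bnip3 without overexpression replicate 2. In these fits a group holds 1 library, assumed to vary like the other group. With a library left out, these members changed sign: Bcl2 from -0.44 to 0.065, Bok from -0.16 to 0.039, Bcl2l11 from -0.67 to 0.47, Bad from -0.48 to 0.016, Casp8 from -0.014 to 0.080, Casp9 from -0.23 to 1.18, Casp12 from -0.056 to 0.22, Cycs from -0.24 to 0.15, Aifm1 from -0.072 to 0.051, Birc3 from -0.073 to 0.26, Birc5 from -0.096 to 0.055, Tradd from -0.070 to 0.096, Traf2 from -0.091 to 0.026, Ripk1 from -0.090 to 0.086, Ninj1 from -0.55 to 0.28. None of them was called in any of these fits. The sum of Bcl2l2 and Gm20521, chosen after seeing the data, was the 1 added alternative. The causes were not tested. Depth limits Bik, Nlrp3, Pycard and the wild type level of Gsdmd.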

Other observations

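Among the further pathway genes, Nek7, a kinase needed by the Nlrp3 inflammasome and named after its values were seen, had 1521 and 5312 normalised reads in the overexpressing libraries, against 1452 and 1616 in the wild type libraries. Overexpression replicate 2 stood alone, and overexpression replicate 1 lay between the wild type libraries. Bnip3, a mitochondrial member of the Bcl2 family induced by low oxygen, was also named after its values were seen. It had 10916 and 5408 normalised reads in the overexpressing libraries, against 6178 and 6447 in the wild type libraries. Here overexpression replicate 1 stood alone at the high end and overexpression replicate 2 was the lowest of the 4.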
